A study of Rattus norvegicus with 19 samples.

Results

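The cytosolic ribosome translates mRNAs transcribed in the nucleus, and its protein parts are encoded by genes named Rpl for the large subunit and Rps for the small subunit. The genes described here were chosen by symbol, as Rpl or Rps followed by a number with an optional paralog letter, together with the stalk genes Rplp0, Rplp1 and Rplp2 and the gene Rpsa, and the Rps6k kinases were left out. This rule found 82 of the 17455 genes in the count files, 48 of the large subunit and 34 of the small subunit. A minimum-count filter kept 79 of them among 12388 genes tested, 47 and 32 by subunit. Rpl39l was not tested because its counts were too low, and Rps9 and Rps9l1 were listed at 0 in all 19 libraries. Rpl7l1, Rpl10l and Rpl35a were not analysed here.

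Ribosomal proteins assemble with ribosomal RNA in the nucleolus, in a process that needs the proteins of both subunits. Many of their mRNAs begin with a run of pyrimidines, the 5′ terminal oligopyrimidine tract or TOP motif, through which the kinase mTOR regulates their translation. In the heart, growth of cardiomyocytes goes with the making of new ribosomes, and striated muscle replaces part of its Rpl3 with the paralog Rpl3l.

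Wild-type Sprague-Dawley rats, 24 weeks old at the start, were given a two-hit model of heart failure with preserved ejection fraction (HFpEF), in which the nitric oxide synthase blocker L-NAME was added to the drinking water at 0.5 g/L and a high-fat diet supplied 60% of the calories. RNA of the left ventricle was sequenced, as the study's methods give it, while the labels say heart. All samples were labelled male, although the protocol in the labels speaks of groups of both sexes, each library was from a separate heart by the labels' numbering of biological replicates, and libraries of a group are given below in the order of that numbering. Week 5 had HFpEF rats after 5 weeks of both hits and control 5w rats without L-NAME, with 3 libraries each. The labels leave the diet of the control rats unstated, and the study's text gives it as normal chow. Week 9 had control 9w rats (3 libraries) and rats that had received both hits for 5 weeks and then, for 4 weeks, phosphate-buffered saline (untreated, 3 libraries), the SGLT2 inhibitor empagliflozin at 0.35 g/kg/day (EMPA, 2 libraries), the antifibrotic pirfenidone at 0.3 g/kg/day (PFD, 2 libraries), or both drugs at these doses (EMPA + PFD, 3 libraries). The labels do not say whether the hits went on during treatment, and the study's discussion counts the whole time as induction.

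Total counts ranged from 7430539 to 13017754 per library, and levels below are TMM-normalised CPM unless they are called counts. Levels are not compared between genes, since gene length was not used. Several libraries stood apart. The Y-linked gene Eif2s3y had 0 counts in HFpEF 1 and 3, in all 3 untreated libraries and in both PFD libraries, where 0 allows at most 0.246 to 0.311 CPM (3 counts, counting error only), while the other 12 libraries held 613 to 1321 counts, although all were labelled male. The atrial gene Myl4 had 19668 counts in untreated 2, 13853 in control 9w 3 and 2702 in control 9w 1, and at most 436 in the other libraries. The class I MHC gene RT1-CE16 had 3 or fewer counts in all control 5w, HFpEF and EMPA libraries and 308 or more in the rest. Control 5w 1 also differed from control 5w 2 and 3 in cell type markers: summed CPM of 6 fibroblast markers (most abundant Col3a1) were 4429.7, 40846 and 32902 in control 5w, and of 7 cardiomyocyte markers (most abundant Myh6) 72084, 29400.0 and 32873 in control 5w. In bulk tissue, fewer cells of a type and less RNA per cell cannot be told apart.

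The 82 genes together took between 2.51% and 5.69% of all counts in a library. Their share was 3.57, 3.88 and 3.52 in control 5w, 5.69, 5.51 and 4.55 in HFpEF, 3.90, 3.74 and 3.61 in control 9w, 3.40, 4.64 and 3.19 in untreated, 4.08 and 4.67 in EMPA, 3.45 and 3.12 in PFD and 3.15, 2.51 and 2.66 in EMPA + PFD, in percent. Group means ± SD were 3.66% ± 0.193 in control 5w, 5.25% ± 0.610 in HFpEF, 3.75% ± 0.141 in control 9w, 3.75% ± 0.782 in untreated (n = 3 each), 4.37% ± 0.420 in EMPA and 3.29% ± 0.232 in PFD (n = 2 each), and 2.77% ± 0.334 in EMPA + PFD (n = 3). All HFpEF libraries lay above all control 5w libraries, and all EMPA + PFD libraries lay below all untreated libraries, although EMPA + PFD 1 at 3.15% was close to untreated 3 at 3.19%. Untreated 2 at 4.64% set most of the spread of its group. No p is given for a share summed over the chosen genes.

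**Figure D1:**
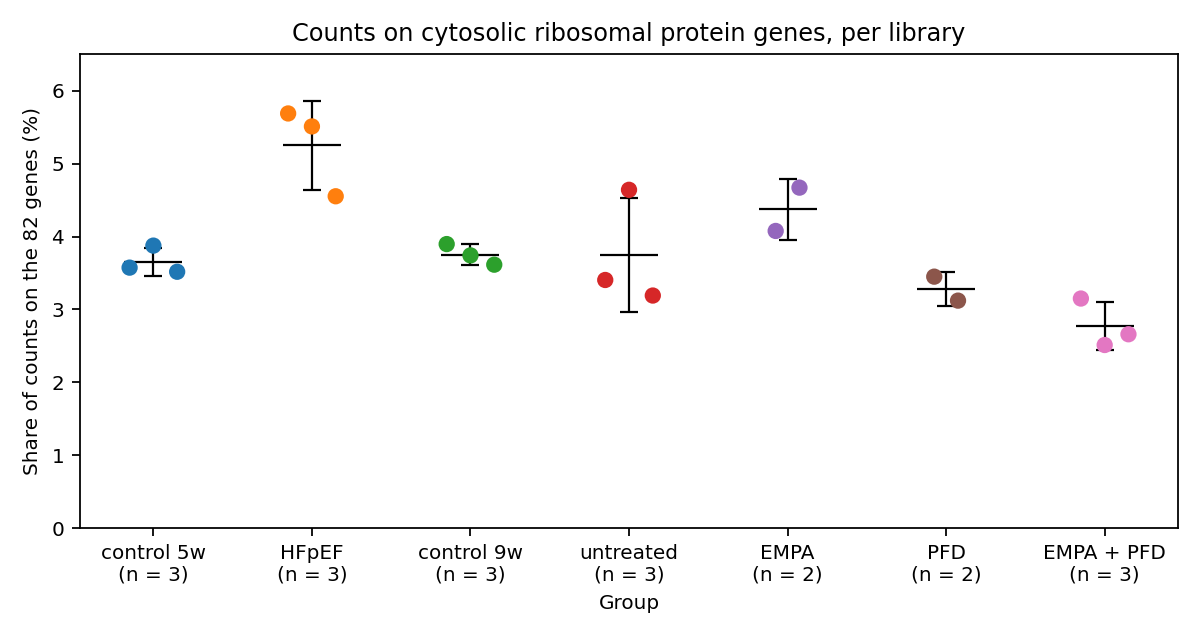
Share of all counts taken by the 82 cytosolic ribosomal protein genes (vertical axis, percent) in each of 19 libraries (points), by group (horizontal axis), with the group mean and SD (bars). HFpEF libraries lie between 4.55% and 5.69% and control 5w libraries between 3.52% and 3.88%.

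The comparison of HFpEF with control 5w asks how the heart differed after 5 weeks of both hits. Part of the ribosomal protein genes were higher in HFpEF: 29 of 79 rose by edgeR's quasi-likelihood test at a Benjamini-Hochberg (BH) adjusted p under 0.05 and 0 fell, beside 9.83% higher and 10.2% lower among all 12388 genes, and 50 were not called. At an unadjusted p under 0.05, 54 were higher, beside 17.8% of all genes, and 1 was lower. These 55 were 34 without control 5w 3 and 31 with only the 6 libraries of both groups. DESeq2 called 49 higher, beside 12.7% of all genes, and 1 lower. Their median log2 fold change was 0.35 against 0.02 over all genes, and 74 of 79 values were positive, with a range from -1.34 for Rpl3l to 1.53 for Rps4y2. In 56 of the 79 genes every HFpEF library lay above every control 5w library, beside 18.6% of all genes. Of 47 large-subunit genes 18 (38.3%) were called, with a median of 0.35, and of 32 small-subunit genes 11 (34.4%), with a median of 0.35, beside the 9.83% of all genes. With single libraries left out the median stayed between 0.30 and 0.41, while the number of calls moved. It was 6 without control 5w 3 (5.13% of all genes higher), 14 without HFpEF 1 (7.66%) and 11 without HFpEF 2 (6.54%). It was 2 when only the 6 libraries of both groups were fitted (2.70% of all genes higher), 13 with only libraries holding Eif2s3y counts, which leaves HFpEF 2 alone in its group and assumes that it varies like the others (6.73% of all genes higher), and 1 under the study's added rule of a 2-fold change.

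**Figure D2:**
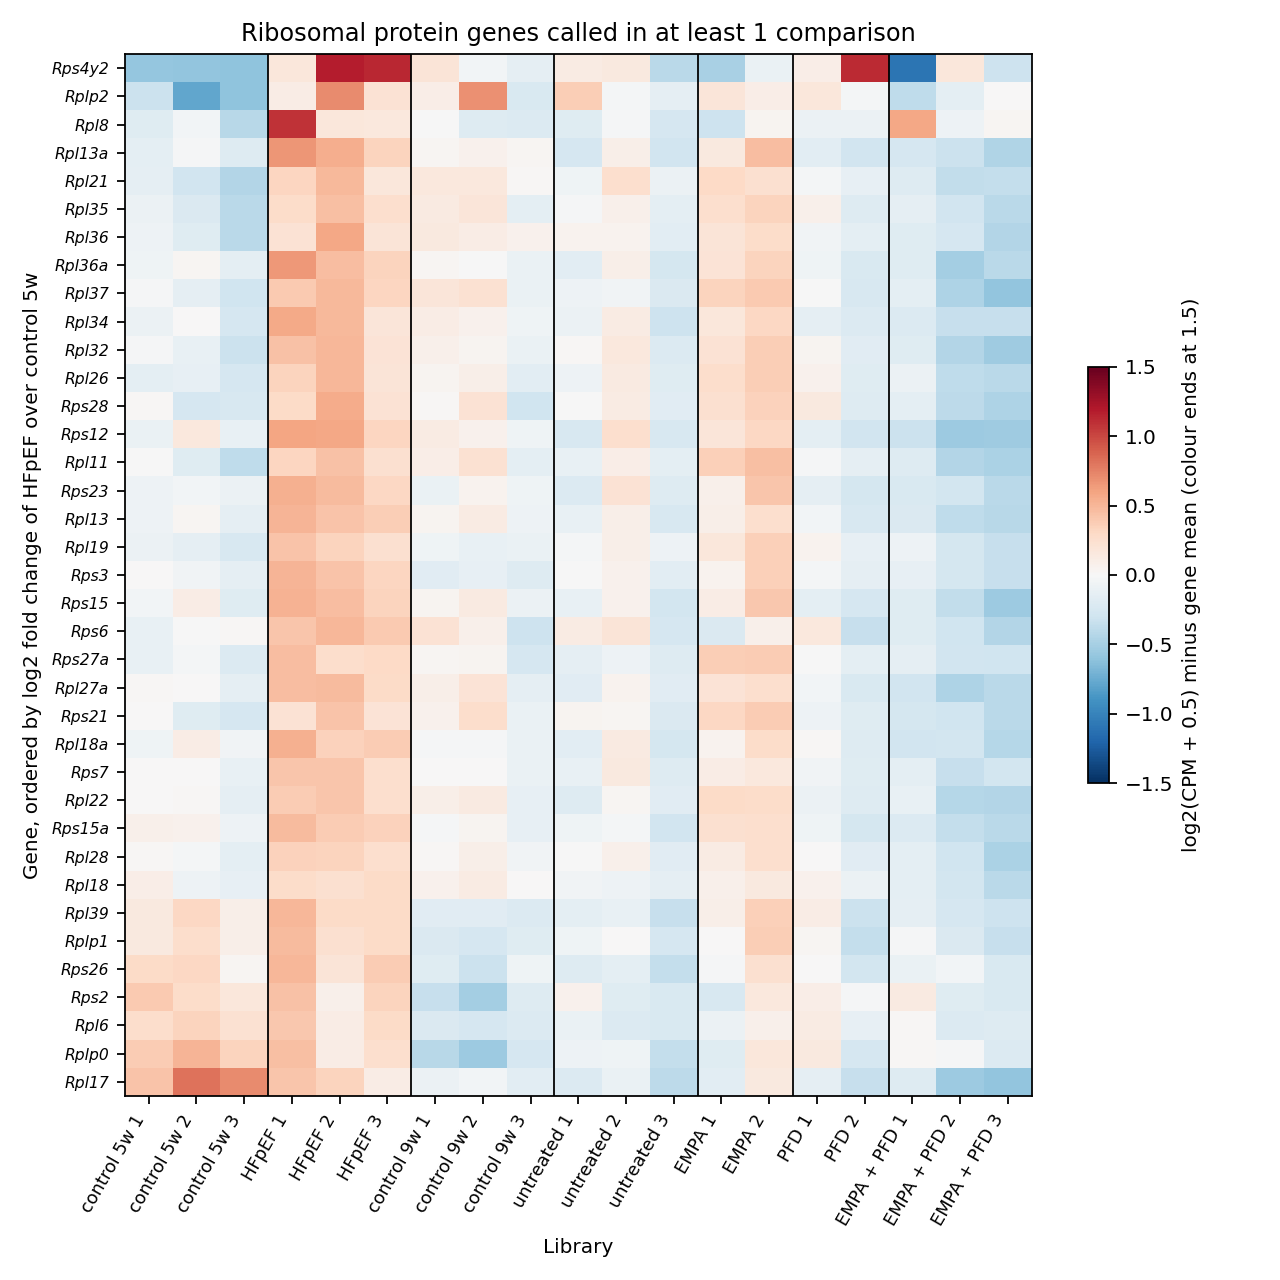
Level of the 37 cytosolic ribosomal protein genes called in at least 1 comparison (rows, ordered by log2 fold change of HFpEF over control 5w) in 19 libraries (columns), as log2(CPM + 0.5) minus the gene's mean, with red above and blue below it. Most rows are red in all 3 HFpEF columns, paler red in both EMPA columns and blue in EMPA + PFD 2 and 3, and Rps4y2 in the top row is reddest in HFpEF 2 and 3 and PFD 2.

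The largest rises of the large subunit, beside that of the stalk gene Rplp2, were in Rpl8, Rpl13a and Rpl21. Rpl13a, a common reference gene, had CPM values of 899.7, 985 and 869 in control 5w, 1575, 1456 and 1251 in HFpEF, 1012, 1041 and 1011 in control 9w, 838, 1055 and 816 in untreated, 1096 and 1374 in EMPA, 894 and 817 in PFD and 832, 792 and 724 in EMPA + PFD. The 3 HFpEF values lay above all other groups' values except EMPA 2, which at 1374 lay above HFpEF 3. Its log2 fold change was 0.64 ± 0.15 (SE; n = 3 and 3; edgeR quasi-likelihood, BH-adjusted p = 0.0115), and it was called in 13 of 14 alternative settings. Rpl21 had CPM values of 331, 297 and 267 in control 5w and 455, 507 and 406 in HFpEF, with no overlap and a log2 fold change of 0.61 ± 0.13 (edgeR quasi-likelihood, BH-adjusted p = 0.00722). Rpl8, which lies at the peptidyl transferase centre, had CPM values of 40.1, 44.1 and 33.9 in control 5w and 96.5, 50.98 and 50.8 in HFpEF, so that HFpEF 1 alone was far above the controls. Its log2 fold change of 0.75 ± 0.23 (edgeR quasi-likelihood, BH-adjusted p = 0.0324) lost its call in 5 of 14 alternative settings. The next largest rises were in Rpl35 (0.56 log2), Rpl36 (0.56), Rpl36a (0.55), Rpl37 (0.55), Rpl34 (0.53) and Rpl32 (0.53), and of the 18 calls Rpl28 had the smallest at 0.36. Counts in the short lists by site and use that follow stand beside 9.83% of all genes called higher in HFpEF. Of 3 genes at the peptidyl transferase centre, Rpl8, Rpl3 and Rpl10, Rpl8 was the 1 called. At the bridge between the subunits, Rpl24 (0.27 log2) and Rpl41 (0.45) gave 0 of 2 calls by edgeR, with both at an unadjusted p under 0.05. Members named outside the fixed rule, such as Rpl35, Rpl36, Rpl37 and Rpl28, were named after their values were seen.

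At the exit tunnel, through which the new peptide leaves, 2 of 7 genes rose, namely Rpl19 (log2 fold change 0.49) and Rpl35. Rpl17, which lines the same tunnel, had lower values in HFpEF, with CPM values of 495, 652 and 606 in control 5w and 494, 465 and 399 in HFpEF. Every HFpEF library lay below every control 5w library for Rpl17, and its log2 fold change of -0.37 ± 0.15 did not pass (edgeR quasi-likelihood, BH-adjusted p = 0.0953). Rpl4 and Rpl39 of the same list had log2 fold changes of 0.32 and 0.18, neither called. Of the 5S particle, which carries Rpl5 and Rpl11 and binds Mdm2 when it is free of ribosomes, Rpl11 rose and Rpl5 was not called. Rpl11 had CPM values of 477, 421 and 367 in control 5w, 597, 648 and 564 in HFpEF, 509.7, 560.1 and 429.7 in control 9w, 441, 509 and 431 in untreated, 609.8 and 652 in EMPA, 471 and 435 in PFD and 418, 351 and 344 in EMPA + PFD. HFpEF and EMPA held its highest values, and all of these lay above the other 14 libraries. The log2 fold change in HFpEF was 0.52 ± 0.14 for Rpl11 (edgeR quasi-likelihood, BH-adjusted p = 0.0209, a call lost in 5 of 14 alternative settings) and 0.35 ± 0.13 for Rpl5 (edgeR quasi-likelihood, BH-adjusted p = 0.0657).

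The stalk, made of Rplp0 with Rplp1 and Rplp2, recruits the elongation factors. Of its 3 genes, 1 was called in HFpEF. Rplp2 had CPM values of 11.5, 8.22 and 9.39 in control 5w, 15.7, 23.9 and 16.97 in HFpEF, 15.6, 23.6 and 12.3 in control 9w, 18.9, 14.1 and 13.2 in untreated, 16.5 and 15.5 in EMPA, 16.3 and 14.2 in PFD and 10.998, 13.03 and 14.5 in EMPA + PFD. Control 5w 2 and 3 held its lowest values, and HFpEF 2 and control 9w 2 its highest. Its rise of 0.96 ± 0.24 log2 in HFpEF (edgeR quasi-likelihood, BH-adjusted p = 0.0141) kept its call in 12 of 14 alternative settings. Rplp0, by contrast, had CPM values of 1575, 1734 and 1526 in control 5w, 1662, 1305 and 1441 in HFpEF, 912, 830.1 and 1022 in control 9w, 1146, 1157 and 943 in untreated, 1065 and 1364 in EMPA, 1339 and 1019 in PFD and 1232, 1199 and 1055 in EMPA + PFD. Control 5w and HFpEF overlapped, with a log2 fold change of -0.13 ± 0.17, and all 6 week 5 libraries but HFpEF 2 lay above every week 9 library. Rplp1 had a log2 fold change of 0.17 ± 0.14 in HFpEF, also not called.

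Among small-subunit genes, Rps4y2 had the largest rise. Rps4y2 encodes a paralog of the X-linked subunit protein Rps4x and lies on chromosome 4 in build GRCr8, and had CPM values of 8.86, 8.77 and 8.67 in control 5w, 15.1, 30.99 and 30.01 in HFpEF, 15.5, 13.04 and 12.2 in control 9w, 14.7, 14.9 and 10.01 in untreated, 9.46 and 12.5 in EMPA, 14.5 and 29.8 in PFD and 6.03, 15.2 and 10.8 in EMPA + PFD. HFpEF 2 and 3 and PFD 2 were about alike and far above the other libraries, while HFpEF 1 lay near the untreated level. Its log2 fold change of 1.53 ± 0.34 (edgeR quasi-likelihood, BH-adjusted p = 0.00873) was called in all 14 alternative settings and was the sole change of the list that reached the study's 2-fold rule. Rps4x had a log2 fold change of 0.25 ± 0.14 and was not called. Of 4 genes at the mRNA entry and decoding sites, Rps23 (0.51 log2), Rps3 (0.48) and Rps15 (0.48) rose, whereas Rps2 was at 0.01. Of 6 genes of the head and beak, Rps12 (0.52 log2) and Rps27a (0.46, a call lost in 4 of 14 alternative settings), which is made as a fusion with ubiquitin, rose. All 6 had every HFpEF library above every control 5w library, beside 18.6% of all genes. At the mRNA exit, 1 of 4 genes rose, Rps28 (0.52 log2). Rps6, the substrate of the S6 kinases, had CPM values of 34.4, 36.9 and 37.6 in control 5w and 49.8, 52.4 and 49.03 in HFpEF without overlap. Its log2 fold change was 0.47 ± 0.16 (edgeR quasi-likelihood, BH-adjusted p = 0.0486), and the call was lost in 9 of 14 alternative settings. Rpsa, the laminin-receptor subunit, had a log2 fold change of 0.21 ± 0.17 without a call. Of 8 analysed genes that can be mutated in Diamond-Blackfan anaemia, Rpl11 and Rps7 (0.40 log2) rose, and the median of the 8 was 0.34.

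**Figure D3:**
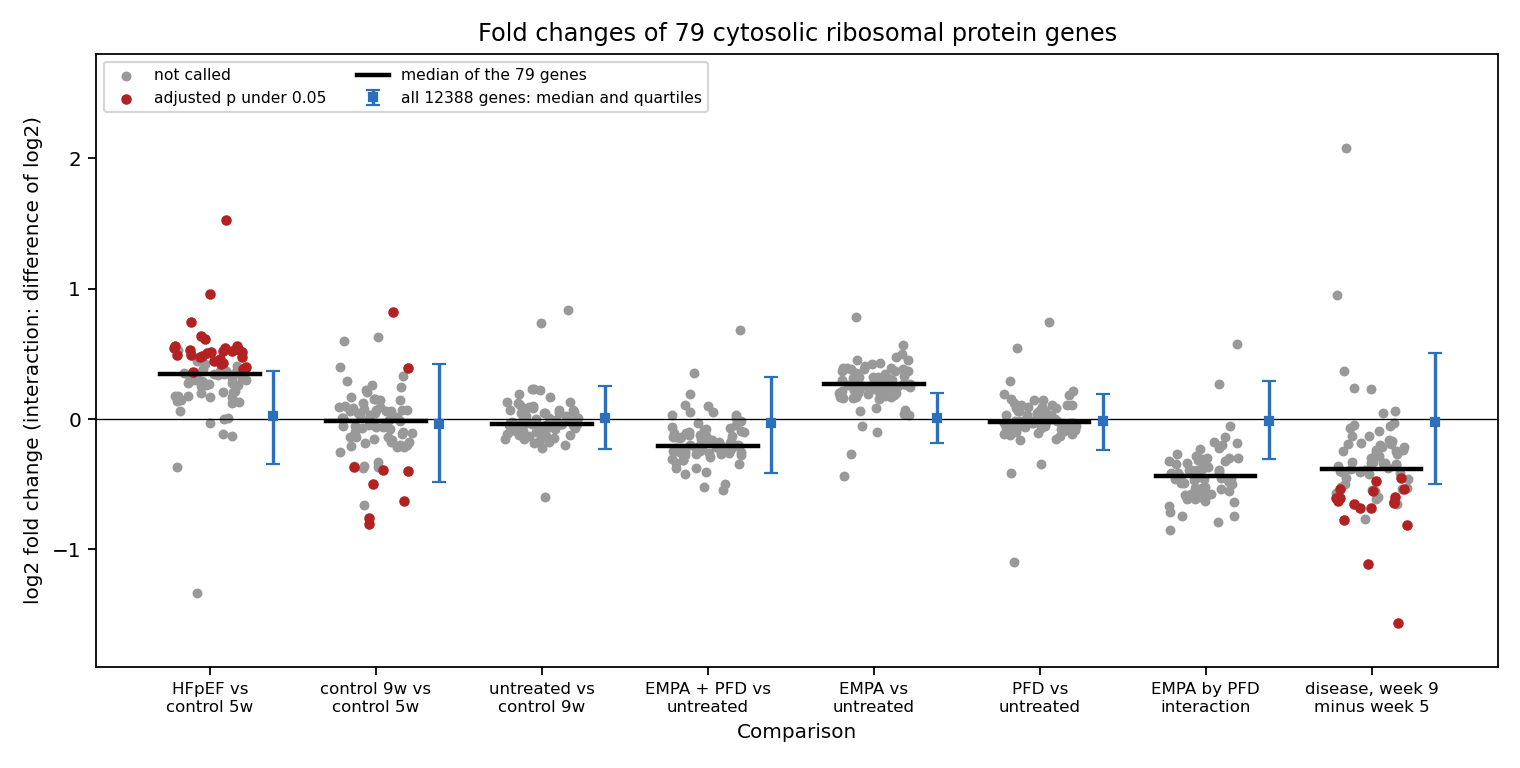
log2 fold changes (vertical axis) of 79 cytosolic ribosomal protein genes (points, red at a BH-adjusted p under 0.05) in 8 comparisons (horizontal axis), with their median (black line) and the median and quartiles of all 12388 genes tested (blue). The median is 0.35 in HFpEF against control 5w, 0.27 in EMPA against untreated and -0.38 for the week 9 disease difference minus that of week 5.

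Rpl3 and Rpl3l, which take the same place near the peptidyl transferase centre, were highest in different libraries. Rpl3 had CPM values of 438, 831 and 731 in control 5w, 1183, 819 and 878 in HFpEF, 624, 504 and 691 in control 9w, 396, 809.8 and 461 in untreated, 556 and 891 in EMPA, 480.3 and 392 in PFD and 368, 375 and 433 in EMPA + PFD. Rpl3l had CPM values of 465, 106 and 129 in control 5w, 29.998, 111 and 136 in HFpEF, 152, 182 and 109.6 in control 9w, 416, 35.5 and 289.6 in untreated, 233 and 133 in EMPA, 291 and 428 in PFD and 409.8, 406 and 374 in EMPA + PFD. Where Rpl3l was lowest, in HFpEF 1 and untreated 2, Rpl3 was high, and the reverse held in control 5w 1, untreated 1, PFD 2 and the 3 EMPA + PFD libraries. The ratio of Rpl3l to Rpl3 counts was 1.06, 0.127 and 0.177 in control 5w, 0.0254, 0.135 and 0.155 in HFpEF, 0.244, 0.361 and 0.158 in control 9w, 1.05, 0.0438 and 0.628 in untreated, 0.418 and 0.149 in EMPA, 0.607 and 1.09 in PFD and 1.11, 1.08 and 0.863 in EMPA + PFD. It thus ran from 0.0254 to 1.11 over the libraries, and control 5w alone covered 0.127 to 1.06. In HFpEF, Rpl3l had a log2 fold change of -1.34 ± 0.72 (edgeR quasi-likelihood, BH-adjusted p = 0.197) and Rpl3 of 0.53 ± 0.29 (edgeR quasi-likelihood, BH-adjusted p = 0.203), so neither was called against this spread, and neither was called in any of the 8 comparisons.

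**Figure D4:**
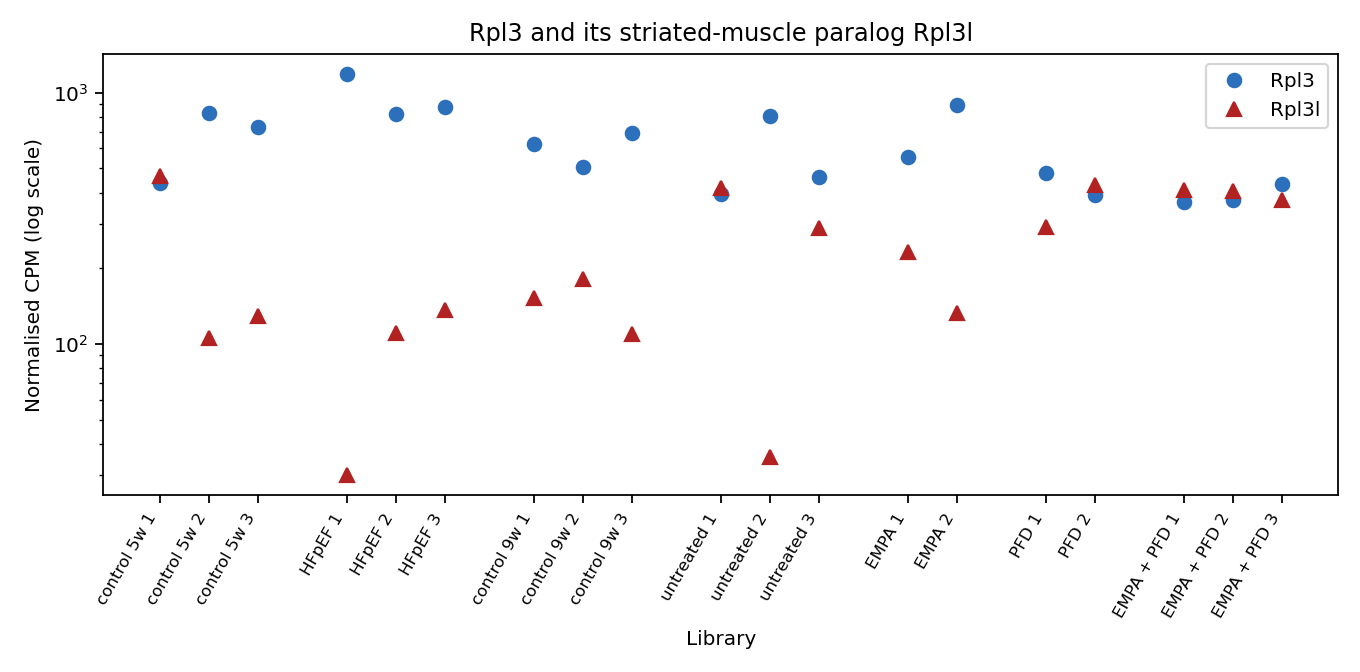
CPM of Rpl3 (circles) and its striated-muscle paralog Rpl3l (triangles) in each of 19 libraries, on a log axis. Rpl3l ranges from 29.998 in HFpEF 1 to 465 in control 5w 1, and Rpl3 from 368 in EMPA + PFD 1 to 1183 in HFpEF 1.

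Of the other paralogs, Rpl22l1 had a log2 fold change of 0.13 ± 0.17 in HFpEF while its partner Rpl22 rose by 0.39 ± 0.11 (edgeR quasi-likelihood, BH-adjusted p = 0.0283), a call lost in 7 of 14 alternative settings. Rps27l was at 0.20 ± 0.18 and Rps27 at 0.35 ± 0.16 log2, without a call. Rpl7 was at 0.26 ± 0.13 and Rpl10 at 0.17 ± 0.13 log2, also without a call. Of 5 members often used as reference genes for PCR, Rpl13a and Rpl32 rose in HFpEF, with log2 fold changes of 0.64 and 0.53 and the call of Rpl32 lost in 4 of 14 alternative settings. Rps18, Rpl4 and Rplp0 were at 0.34, 0.32 and -0.13 without a call.

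Markers of cardiac cell types differed between the same libraries. Summed CPM of the 7 cardiomyocyte markers in the files, of 8 listed, were 72084, 29400.0 and 32873 in control 5w, 9121, 18398 and 27664 in HFpEF, 29585, 34495 and 32313 in control 9w, 56109.6, 16819.9 and 45164 in untreated, 36266 and 27795 in EMPA, 52108 and 59546 in PFD and 54194, 78996 and 66312 in EMPA + PFD. The lowest sums were in HFpEF 1 and untreated 2 and the highest in EMPA + PFD 2 and control 5w 1. In HFpEF against control 5w, 2 of these 7 markers fell, Actc1 and Ryr2 (-1.24 log2). The 6 fibroblast markers summed to 4429.7, 40846 and 32902 in control 5w, 15997, 9471 and 11806 in HFpEF, 4237, 3017 and 4434 in control 9w, 3864, 8073 and 3643 in untreated, 3591 and 7344 in EMPA, 4263 and 3813 in PFD and 4612, 1994 and 3894 in EMPA + PFD CPM. Control 5w 2 and 3 held the highest fibroblast sums. For 6 endothelial markers (most abundant Kdr) the sums were 1466, 1138 and 1327 in control 5w, 1102, 2861 and 2106 in HFpEF, 2891, 3248 and 2361 in control 9w, 2373, 2331 and 2718 in untreated, 2406 and 1812 in EMPA, 2001 and 2101 in PFD and 1651, 1368 and 1363 in EMPA + PFD CPM, and 3 of 6 rose in HFpEF. Of 6 tested lymphoid markers 3 rose. The 7 lymphoid markers in the files (most abundant Cd2) summed to 10.7, 13.4 and 16.2 in control 5w and 45.5, 33.01 and 37.8 in HFpEF CPM. In the same comparison, 1 of 6 erythroid and 2 of 2 mesothelial markers rose, and 0 of 8 myeloid, 0 of 6 smooth muscle and pericyte, 0 of 6 fibroblast, 0 of 5 atrial and 0 of 2 tested adipocyte markers were called by edgeR, with 1, 2, 1, 1 and 0 at an unadjusted p under 0.05. The mesothelial marker Msln had 0, 4 and 2 counts in control 5w and 233, 6 and 4 in HFpEF, so that HFpEF 1 alone was far above the controls. Sums of 8 myeloid markers (most abundant Lyz2) were 674, 2169 and 1749 in control 5w and 3139.6, 674 and 1825 in HFpEF CPM. HFpEF 1 held the highest myeloid sum, and the groups overlapped. The 5 atrial markers (most abundant Nppa) summed to 3284, 6124 and 4649 in control 5w, 2086, 272 and 1968 in HFpEF, 5197, 188 and 23340.2 in control 9w, 48.004, 14872 and 484 in untreated, 698 and 5172 in EMPA, 2983 and 62.6 in PFD and 86.4, 381 and 153 in EMPA + PFD CPM, with control 9w 3 and untreated 2 far above the other libraries. Over the 19 libraries the sums ranged from 741 to 2865 CPM for smooth muscle and pericyte markers (most abundant Pdgfrb), from 144 to 3978 for erythroid (Hbb), from 27.4 to 194 for mesothelial (Wt1) and up to 5.44 for adipocyte (Adipoq). No listed marker in the files was at 0 in every library. The part of these cell types in the result was not tested.

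Control 9w against control 5w compares hearts without the 2 hits at both times, and shares its control 5w libraries with the HFpEF comparison. Few ribosomal protein genes were called: 2 of 79 rose and 7 fell by edgeR at a BH-adjusted p under 0.05, beside 17.3% higher and 17.2% lower over all genes, and the median was -0.01 against -0.04 log2 over all genes. The stalk was divided. Rplp0 fell by 0.81 log2 (SE 0.17, edgeR quasi-likelihood, BH-adjusted p = 0.00282) and Rplp1 by 0.39, while Rplp2 rose by 0.82 (SE 0.24, edgeR quasi-likelihood, BH-adjusted p = 0.0162). Rplp0 and Rplp1 differed without overlap, as did Rplp2 in the other direction. Rpl17, with CPM values of 347, 358 and 330.3 in control 9w, fell by 0.76 log2 (edgeR quasi-likelihood, BH-adjusted p = 0.00219), and Rps2, with CPM values of 1264, 1167 and 1080.4 in control 5w and 754, 677 and 839 in control 9w, fell by 0.63 (edgeR quasi-likelihood, BH-adjusted p = 0.00976). Rpl6 fell by 0.50, Rps26 by 0.40 and Rpl39 by 0.37, and Rpl21 rose by 0.39 log2. Rplp0 and Rpl17 were called in all 15 alternative settings, Rps2 in 14, Rplp2 in 11, Rpl21 in 8, Rpl39 in 6 and Rplp1 in 2. The count of 9 was 4 without control 5w 2 (24.0% of all genes called), 5 without control 5w 3 (24.8%) and 5 without control 9w 1 (24.2%). It was 3 without control 9w 2 (20.9%), 5 with only the 6 libraries of both groups (32.6%), and 0 under the 2-fold rule. Leaving out the 3 libraries high in Myl4, an alternative chosen after seeing the data, left control 9w 2 alone in its group, and no count is given. DESeq2 called 12, of which 8 lower, beside 19.6% of all genes higher and 19.01% lower. Fibroblast markers moved in the same comparison, with 5 of 6 lower and a median of -2.77 log2, as did 5 of 6 endothelial and 2 of 5 atrial markers, which were higher, and 4 of 8 myeloid markers, which were lower. The fibroblast sum of control 5w 1, 4429.7 CPM, lay within those of control 9w (4237, 3017 and 4434). Atrial sums were 3284, 6124 and 4649 CPM in control 5w and 5197, 188 and 23340.2 in control 9w. Control 9w 3 alone lay above all control 5w libraries, and control 9w 2 lay below them. Of smooth muscle and pericyte markers 1 of 6 was higher and 1 lower, 1 of 7 cardiomyocyte markers was lower, and 1 of 6 tested lymphoid and 1 of 2 mesothelial markers were higher. RT1-CE16 set the groups apart, at 0 or 1 counts in control 5w and 825 to 922 in control 9w. The part of these differences in the result was not tested.

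Untreated against control 9w asks how the disease group differed at week 9. Here 0 of 79 genes were called by edgeR, 1.78% of all genes being called in either direction, and DESeq2 also called 0. At an unadjusted p under 0.05 there was 1 of 79, beside 18.2% of all genes, and the median was -0.04 log2, or -0.14 without the 3 libraries high in Myl4. Without untreated 3 the median was above 0, at 0.04, and 2 genes were at an unadjusted p under 0.05, while it was -0.09 without untreated 2, -0.08 without control 9w 3 and -0.00500 without control 9w 2. With all libraries that gene was Rpl30, a small protein of the large subunit, which had CPM values of 113, 211 and 203 in control 5w, 164, 173 and 152 in HFpEF, 150.0, 158 and 111 in control 9w, 261, 272 and 216 in untreated, 425 and 433 in EMPA, 121 and 112 in PFD and 234, 86.6 and 193 in EMPA + PFD. EMPA held its highest values, and the untreated libraries lay above control 9w and PFD libraries. Its log2 fold change of 0.84 ± 0.29 in untreated did not pass (edgeR quasi-likelihood, BH-adjusted p = 0.14), nor did the -1.10 ± 0.33 of PFD against untreated (edgeR quasi-likelihood, BH-adjusted p = 0.786). Rpl30 was named after its values were seen. Of 6 erythroid markers 2 were called lower in untreated, with all 6 at an unadjusted p under 0.05 and a median of -2.62 log2, and 1 of 6 tested lymphoid markers was called higher. Eif2s3y set the groups apart, at 0 counts in untreated and 613 to 741 in control 9w, a difference that the interaction by week also contains. The part of these differences in the result was not tested.

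Whether the disease difference itself differed between the weeks was tested as an interaction, the difference of untreated from control 9w minus that of HFpEF from control 5w, which contains both of those comparisons. By edgeR, 18 of 79 genes were lower at a BH-adjusted p under 0.05 and 0 were higher, with 1 higher at an unadjusted p under 0.05 and 0 higher by DESeq2. Over all genes 10.2% were lower and 9.76% higher. The median of the 79 was -0.38 log2. Of the genes called, Rps4y2 (-1.57 ± 0.48 log2), Rplp2 (-1.11 ± 0.33) and Rpl13a (-0.81 ± 0.21) had the largest differences, with edgeR quasi-likelihood, BH-adjusted p = 0.0324, 0.0301 and 0.0162. Rpl3l had a larger value, 2.08 ± 1.02, that was not called (edgeR quasi-likelihood, BH-adjusted p = 0.158). Rpl13a was called in 19 of 20 alternative settings, Rplp2 in 14 and Rps4y2 in 10. Rpl11 (-0.63 log2), Rpl22 (-0.54) and Rps27a (-0.54) were also called, and kept the call in 10, 11 and 11 of these settings. The count rested on single libraries: it was 30 without untreated 2, of which 29 lower, 20 without control 9w 3, 2 without untreated 3, 4 without untreated 1, 4 without control 5w 3, 4 without control 9w 2, 5 without control 9w 1, 7 without HFpEF 2 and 10 without HFpEF 1. With only the 12 libraries of these groups it was 2 (6.62% of all genes lower) and without a filter on low counts 9 (7.11%). By DESeq2 it was 33 (13.4% of all genes lower), and under the 2-fold rule 2. Of 6 erythroid markers 5 were lower in this test, with a median of -3.43 log2, as were 2 of 2 mesothelial, 2 of 6 endothelial and 1 of 6 tested lymphoid markers. Of the 7 cardiomyocyte markers 2 were higher, with a median of 1.66, as was 1 of 6 smooth muscle and pericyte markers. Their part in the result was not tested.

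EMPA + PFD against untreated asks what the combined treatment did. Most ribosomal protein genes had negative values, none past the threshold: 0 of 79 were called by edgeR, 12.1% of all genes being called in either direction, and 9 were lower and 0 higher at an unadjusted p under 0.05, beside 16.1% of all genes lower. These 9 were 0 without untreated 2, 0 without EMPA + PFD 3, 1 without EMPA + PFD 2, 14 without untreated 3 and 1 with only the 6 libraries of both groups, of either direction in each case. Over all genes, the 12.1% called was 1.13% without untreated 2 and 0.888% without EMPA + PFD 2. That share was 0.0435% with only the 6 libraries of both groups, and 18.3% without untreated 1. DESeq2 called 4, all lower, beside 8.94% of all genes lower, and leaving out untreated 1 gave 1, lower. The median was -0.21 log2 against -0.03 over all genes, and 10 of 79 values were positive. With 1 library left out the median lay between -0.24 and -0.13, the latter without untreated 2 or EMPA + PFD 3. In 13 genes the libraries did not overlap with EMPA + PFD lower, beside 18.7% of all genes. Upper-quartile scaling moved the median of all genes to -0.12 and that of the 79 genes to -0.30, gave 32 of them at an unadjusted p under 0.05 in place of 9, and changed the calls over all genes from 817 higher and 684 lower to 628 higher and 1009 lower. Rpl31, an exit tunnel protein, had the lowest p at a log2 fold change of -0.42 ± 0.15 (edgeR quasi-likelihood, BH-adjusted p = 0.0771), followed by Rps12 (-0.41 ± 0.15), Rpl21 (-0.35 ± 0.13) and Rpl32 (-0.38 ± 0.14). Rpl31 and Rps12 were named after their values were seen. Rpl3l had the largest positive value, 0.68 ± 0.71 log2, not called. Cardiomyocyte markers had a median of 0.83 log2 in this comparison, with 1 of 7 called higher, and 1 of 6 erythroid markers was also called higher. Of 6 endothelial markers 1 was called lower and 5 were lower at an unadjusted p under 0.05, and all 6 were lower without overlap, beside 18.7% of all genes, while 2 of 5 atrial markers were called lower. The atrial sums were 48.0, 14872 and 484 CPM in untreated and 86.4, 381 and 153 in EMPA + PFD. Untreated 2 was far above the rest, and untreated 1 lay below every EMPA + PFD library. At an unadjusted p under 0.05, 3 of 6 tested lymphoid markers (median -1.35 log2) and 2 of 6 smooth muscle and pericyte markers (-0.73) were lower. So were 2 of 8 myeloid (-0.78) and 1 of 2 tested adipocyte markers, beside 16.1% of all genes. In these 4 lists 0 were higher at that threshold and 0 were called. Eif2s3y also set these groups apart, at 0 counts in untreated and 825 to 999 in EMPA + PFD. The part of these differences in the result was not tested.

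With EMPA alone most values were positive, none past the threshold, and with PFD alone the median lay near 0. EMPA against untreated gave 0 of 79 calls by edgeR, 0.0404% of all genes being called in either direction, and DESeq2 called 4, all higher, beside 0.46% of all genes. At an unadjusted p under 0.05, 22 were higher and 0 lower, beside 4.61% of all genes higher. These 22 were 6 without EMPA 2, 9 without untreated 3, 38 without untreated 2 and 4 with only the 5 libraries of both groups, of either direction in each case. The median was 0.27 log2 and 75 of 79 values were positive, and in 46 genes both EMPA libraries lay above all 3 untreated libraries, beside 12.3% of all genes. The exceptions with values below 0 were Rpl3l, Rps4y2, Rps6 and Rpl37a. Rps27a had CPM values of 505, 535 and 473 in control 5w, 752, 656 and 671 in HFpEF, 555, 562 and 458 in control 9w, 496, 519 and 478 in untreated, 702 and 707 in EMPA, 544 and 494 in PFD and 498, 447 and 442 in EMPA + PFD. Both EMPA libraries lay in the range of HFpEF and above all other week 9 libraries. Its log2 fold change was 0.50 ± 0.13 (n = 2 and 3, edgeR quasi-likelihood, BH-adjusted p = 0.232), and that of Rps24, which was named after its values were seen, was 0.57 ± 0.15 (edgeR quasi-likelihood, BH-adjusted p = 0.232). Without EMPA 2 the median was 0.17. Erythroid markers were higher with EMPA in 6 of 6 at an unadjusted p under 0.05, with a median of 3.09 log2 and 0 called, and atrial markers lower in 4 of 5, beside 4.02% of all genes lower, with a median of -5.15. The atrial sums were 48.0, 14872 and 484 CPM in untreated and 698 and 5172 in EMPA. Untreated 2 alone lay above the EMPA libraries. At the same threshold 2 of 6 smooth muscle and pericyte markers were higher and 0 lower, with a median of 1.14 log2. Their sums were 1019 CPM in EMPA 1, 2865 in EMPA 2 and 1106, 1208 and 1381 in untreated. Of 7 cardiomyocyte markers 1 was lower and 0 higher. Untreated and EMPA also differed in every library in Eif2s3y, at 0 counts in untreated, and in RT1-CE16, at 0 counts in EMPA, near the week 5 libraries with at most 3. The part of these differences in the result was not tested. PFD against untreated gave 0 of 79 calls by edgeR, 0.00807% of all genes being called, and 0 by DESeq2, with 1 of 79 at an unadjusted p under 0.05, beside 5.21% of all genes, and a median of -0.02 log2. That median was -0.12 without PFD 1, 0.06 without PFD 2, 0.04 without untreated 2 and -0.08 without untreated 3, and the count was 2 without PFD 1 or untreated 1. Erythroid markers were higher with PFD in 4 of 6 at an unadjusted p under 0.05, beside 2.50% of all genes, and in 6 of 6 without overlap, beside 11.4%, with a median of 1.65 log2. Atrial markers were lower in 4 of 5 at an unadjusted p under 0.05, beside 2.71% of all genes, with a median of -5.93, and 0 of either list were called. The atrial sums were 2983 and 62.6 CPM in PFD, and of the untreated libraries untreated 2 alone lay above both. These comparisons share the untreated libraries.

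The interaction of both drugs, the difference of EMPA + PFD from PFD minus that of EMPA from untreated, asks whether EMPA acted alike with and without PFD. It gave 0 of 79 calls by edgeR, 0.00807% of all genes being called, while DESeq2 called 3, all lower, beside 0.161% of all genes. At an unadjusted p under 0.05, 37 of 79 were lower and 0 higher, beside 4.35% of all genes lower. These 37 were 8 without PFD 1, 13 without EMPA 2, 13 without untreated 3, 14 without EMPA + PFD 3, 19 without EMPA + PFD 2, 19 with the replicate block and 18 with only the 10 libraries of these groups, of either direction in each case. The median was -0.44 log2 with 2 of 79 values positive, those of Rpl3l and Rpl8. Rps27l had the largest negative value, -0.85 ± 0.28 log2 (edgeR quasi-likelihood, BH-adjusted p = 0.426), and Rpl11 had -0.74 ± 0.22 (edgeR quasi-likelihood, BH-adjusted p = 0.371). No member passed, and with 2 EMPA and 2 PFD libraries the median moved to -0.34 without PFD 1. Erythroid markers were lower in 6 of 6 at an unadjusted p under 0.05, with a median of -3.97 log2 and 0 called. Eif2s3y was at 0 counts in untreated and PFD and at 676 to 999 in EMPA and EMPA + PFD, and RT1-CE16 was at 0 in EMPA and at 308 or more in the other 3 groups. The part of these differences in the result was not tested.

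Over the 19 libraries most members correlated with the rest of the list, with no value for other genes to set beside this. The Pearson correlation of a member's log2 CPM with the median of the other members had a median of 0.892 over the 79 genes (n = 19 libraries, which share their scaling), and 0.749 after group means were removed. Before that removal it was over 0.5 in 70 genes and lay below 0 for Rpl3l alone, at -0.551, while after it Rpl37a (-0.395), Rpl3l (-0.350) and Rps4y2 (-0.295) lay below 0. Rpl22l1 (0.0194), Rpl37a (0.0312), Rpl30 (0.290), Rps4y2 (0.325) and Rplp2 (0.378) were the next lowest before the removal, and Rps15a (0.975) the highest. The SD of log2 CPM over the libraries had a median of 0.25 in the members and 0.40 in all genes tested. Rpl3l varied over a 15.4-fold range, Rps4y2 over a 5.01-fold and Rpl30 over a 4.99-fold range, while Rpl7a varied over 1.32-fold.

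Other genes of translation were counted in the same way. The mitochondrial ribosomal proteins, which build the separate ribosome of mitochondria, had 1 gene higher and 6 lower of 71 tested in HFpEF, with a median of -0.40 log2, opposite in sign to the cytosolic median of 0.35. The share called lower was 8.45%, beside 10.2% of all genes, while 26 of 71 were lower at an unadjusted p under 0.05, beside 18.1% of all genes, and 64 of 71 values were negative. In EMPA + PFD against untreated they had 2 higher (2.82%, beside 6.60% of all genes) and a median of 0.42. There 22 of 71 were higher at an unadjusted p under 0.05, beside 16.6% of all genes, 36 were higher without overlap, beside 18.7%, and 66 values were positive. Of ribosomal proteins outside the symbol rule, Fau rose in HFpEF by 0.59 ± 0.13 log2 (edgeR quasi-likelihood, BH-adjusted p = 0.00885), while Rpl36al (0.28) and Rack1 (0.05) were not called. Of 32 translation factors, 1 rose in HFpEF, Btf3 (0.28 log2), and 3 fell (9.38%, beside 10.2% of all genes), including the muscle elongation factor Eef1a2 (-2.20) and the cap-binding protein Eif4e (-0.56). In control 9w against control 5w, 1 factor rose, Eif3k (0.59 log2), and 13 fell (40.6%, beside 17.2% of all genes), among them Eef1a2 (-2.61) and the poly(A)-binding Pabpc1 (-0.81). None of the 32 was called in EMPA + PFD against untreated by edgeR, with 10 higher at an unadjusted p under 0.05, beside 16.6% of all genes.

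Of 48 ribosome biogenesis genes, 6 (12.5%) rose in HFpEF and 1 (2.08%) fell, beside 9.83% and 10.2% of all genes. The rises included the nucleolar methyltransferase fibrillarin, Fbl (0.54 ± 0.11 log2, edgeR quasi-likelihood, BH-adjusted p = 0.00656), and the nuclease of small-subunit maturation Nob1 (0.46), and the fall was Rrs1 (-0.56). In control 9w against control 5w 7 rose, led by Dkc1 (0.60) and Gnl3 (0.59), and 7 fell, led by Pno1 (-0.86) and the RNA polymerase I factor Rrn3 (-0.57). Both shares, 14.6%, were below the 17.3% and 17.2% of all genes. With EMPA + PFD, Rrn3 (0.66) and Rrs1 (0.54) rose (4.17%, beside 6.60% of all genes). Among 16 genes of mTOR and TOP control, 3 (18.8%, beside 9.83% of all genes) rose in HFpEF, led by the mTOR inhibitors Ddit4 (1.63 ± 0.34 log2, edgeR quasi-likelihood, BH-adjusted p = 0.00718) and Sesn2 (0.50), and 4 (25.0%, beside 10.2%) fell, led by the mTORC1 scaffold Rptor (-0.73) and the translation repressor Eif4ebp2 (-0.72). In control 9w against control 5w 3 (18.8%, beside 17.3% of all genes) rose, led by Ddit4 (2.14) and Rps6kb2 (0.73), and 5 (31.2%, beside 17.2%) fell, led by Eif4ebp2 (-1.26) and Akt1 (-0.70). With EMPA + PFD 3 (18.8%, beside 6.60% of all genes) rose, led by Eif4ebp2 (0.88 ± 0.24 log2) and Eif4ebp1 (0.73 ± 0.18). Eif4ebp2 had 283, 209 and 150 counts in untreated and 239, 382 and 394 in EMPA + PFD, so that the groups overlapped. Over all genes, the 6.60% higher was 0.697% without untreated 2 and 0.0348% with only the 6 libraries of both groups. These lists were not counted in those fits.

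Promoters of the members were read for the TOP motif. RefSeq promoters of build GRCr8 matched 66 of the 82 members by symbol, while the counts were made on rn6. The search asked for a C within 10 bases on either side of the annotated start, on the gene's strand only, followed by at least 5 bases that were each C or T. It was met by 42 of 66 members (63.6%), by 17.7% of all 27457 promoters, by 16.1% of 56 mitochondrial ribosomal protein promoters, by 31.0% of 29 of translation factors and by 10.9% of 46 of biogenesis genes. Of members called higher in HFpEF, 16 of 26 with a promoter held a match, and of tested members not called, 25 of 38. The median log2 fold change in HFpEF was 0.35 for the 41 tested members with a match and 0.45 for the 23 without. The following windows cover 15 bases on either side of the annotated start, with the matched stretch in capitals, and show the stalk genes, the reference gene Rpl13a and the paralog pairs of Rpl3 and Rps4x.
Rplp0: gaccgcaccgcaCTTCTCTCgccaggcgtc
Rplp1: gcaggcgcatgtgatCCTTTCCTCagctgc
Rplp2: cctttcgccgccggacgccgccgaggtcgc
Rpl13a: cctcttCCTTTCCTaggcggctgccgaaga
Rpl3: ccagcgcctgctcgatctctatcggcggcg
Rpl3l: gacctctggtgcctggtggggaggtCCCTT
Rps4x: tccagcgcgcgcagcctccgaccctaattt
Rps4y2: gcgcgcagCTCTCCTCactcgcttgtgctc

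In GRCr8 these windows lie at chr12:46718376-46718405 (minus strand) for Rplp0, chr8:71290858-71290887 (minus) for Rplp1, chr1:205975906-205975935 (plus) for Rplp2 and chr1:104748899-104748928 (minus) for Rpl13a. Those of the paralogs lie at chr7:113507976-113508005 (minus) for Rpl3, chr10:14258431-14258460 (plus) for Rpl3l, chrX:71342907-71342936 (minus) for Rps4x and chr4:183000898-183000927 (plus) for Rps4y2. Rplp0 and Rplp1 start with a pyrimidine stretch at or near the annotated start, and Rplp2 had no match within the searched reach. The match of Rpl3l begins 10 bases after its start and runs past the printed window, that of Rpl13a ends before the start, and that of Rps4y2 begins before it. A missing match says only that these letters are not in the window searched.

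Many of these genes have near-identical copies, and reads of a copy may be counted on a member or lost as ambiguous. In GRCr8, 77 of the 82 symbols had at least 1 copy named after them, with 36 for Rps2, 29 for Rps27a, 15 each for Rplp0 and Rpl30, 12 for Rpl13a, 11 for Rps6 and 5 for Rplp2. Values of these genes are uncertain to that extent. Rpl37a had 5 to 19 counts in a library, too few for a precise fold change.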

How the data were processed

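The deposited values are raw counts per gene symbol, 1 file for each of 19 libraries, which the authors obtained with htseq-count after trimming by Trim Galore and alignment by HISAT2 to rn6. Versions, annotation and strand setting were not given in the sources used here, so a gene and its antisense partner cannot be told apart. Genes were filtered with filterByExpr, scaled with TMM and tested in 1 model of 7 groups with edgeR 4.0.16 (quasi-likelihood F test, R 4.3.3), with Benjamini-Hochberg adjustment over all genes tested. A gene was called at an adjusted p under 0.05. Standard errors were the log2 fold change over the square root of F. DESeq2 1.42.0, other scalings, no filter, left-out libraries and a replicate block were alternatives. Members, lists and comparisons were chosen with earlier results of these data known. Named by rule were, per comparison, the 3 largest called rises and falls with a mean of at least 1 CPM, fixed paralogs, stalk, 5S particle, Rpsa, Rps6, Rps27a and reference genes, and the 2 largest called rises and falls of the translation factor, biogenesis and mTOR lists. A few results are not reported here.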

Additional observations from a re-analysis of the deposited data

Results flagged for a closer look

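The difference of untreated from control 9w was compared with the difference of HFpEF from control 5w in an interaction test across all genes (edgeR quasi-likelihood, BH-adjusted p under 0.05). In 18 of 79 members the week 9 difference was the lower, beside 10.2% of all genes. This count was 2 without untreated 3, beside 6.91% of all genes lower. It was 2 with only the 12 libraries of these groups, beside 6.62% of all genes lower. The log2 values of week 9 minus week 5 were Rps4y2 -1.57, Rplp2 -1.11, Rpl13a -0.81, Rpl37 -0.77, Rpl21 -0.69, Rpl36 -0.69, Rpl35 -0.65, Rpl34 -0.65, Rpl11 -0.63, Rpl36a -0.63, Rpl13 -0.61, Rps15 -0.60, Rpl27a -0.60, Rps21 -0.56, Rpl22 -0.54, Rps27a -0.54, Rps15a -0.48 and Rpl18 -0.45.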

How the results depend on the processing

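Over the settings other than a left-out library, 56 medians of the members moved by less than the SD between replicates (0.0957) and 2 by more, and where the count of calls was over 0, 16 counts stayed within 1.5 times and 10 did not. Where it was 0, 37 stayed at 0, which shows no stability, and 3 did not. Of the calls of named members under each setting, 235 were kept, 116 were lost and 0 reversed. DESeq2 called 50 in HFpEF, 4 with EMPA + PFD, 4 with EMPA, 3 for the drug interaction and 33 for the interaction by week, beside 26.03%, 20.6%, 0.783%, 0.436% and 25.9% of all genes, and no filter gave 9 for the interaction by week (14.4%). Fitting only the groups compared gave 2, 5 and 2 calls in HFpEF, control 9w and the interaction by week (6.01%, 32.6% and 13.1% of all genes), and the 2-fold rule 1, 0 and 2. Libraries with Eif2s3y counts gave 13 calls and a median of 0.44 in HFpEF, with HFpEF 2 alone in its group and assumed to vary like the others. Without the 3 libraries high in Myl4, chosen after seeing the data, untreated had a median of -0.14, with control 9w 2 alone in its group. Leaving out 1 library at a time gave 6 to 27 calls in HFpEF (12.04% to 16.9% of all genes) and 3 to 9 in control 9w (20.9% to 34.4%). It gave 0 to 1 with EMPA + PFD (0.888% to 18.3%) and 2 to 30 for the interaction by week (10.7% to 29.9%). Medians were 0.17 to 0.34 with EMPA and -0.51 to -0.34 for the drug interaction. Where 1 EMPA or PFD library remained, that library was assumed to vary like the others. The cause was not tested. Replicate numbers did not pair libraries: same-numbered libraries' deviations had a mean correlation of -0.0490, 11 of 52 pairs were over 0.1 and 1 library correlated best with its own number. The replicate block gave 30 calls in HFpEF, 20 for the interaction by week and a median of -0.34 for the drug interaction. Shares over a total without mitochondrially encoded genes could not be run.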
